A study of Homo sapiens with 12 samples.

Results

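The genes described are receptors of the epidermal growth factor (EGF) family and their ligands. They were chosen by name as 8 of the 34687 rows of the expression table: the receptors EGFR, ERBB2 and ERBB3 and the ligands HBEGF, TGFA, EREG, AREG and BTC. Each of the 8 names had a row, and a ninth row, AREGB, carries an older symbol of AREG. The RNA came from HCT116, a colorectal cancer cell line, and PANC1, a pancreatic adenocarcinoma cell line, and was read on Illumina HumanHT-12 v4 BeadChips. Cells of each line were cultured for 12 h or 96 h with the solvent DMSO at 0.05% as the control, with 10 uM C646 or with 10 uM ICG-001. ICG-001 binds the co-activator CBP and blocks its contact with β-catenin, and C646 inhibits the histone acetyltransferases CBP and p300. Per the study's methods, cells for the longer treatment were plated at lower density and passaged during it, so the time points also differ in the history of the culture.

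Each of the 12 combinations of line, treatment and time had 1 column of signal, averaged by the authors over 2 arrays, except PANC1 ICG-001 12 h with 3. Single arrays were not analysed here, so the values carry no error and nothing was tested. Each line stands for 1 tumor, and 1 dose of each drug was used. A gene was called changed when its signals in a pair of columns differed at least 1.5-fold and lay above the detection limit in at least 1 of them. The detection limit, set from the background peak of each column, lay between 143.7 and 144.3 in the HCT116 columns and between 135.6 and 138.3 in the PANC1 columns, and 15328 to 16302 rows per column were above it. Genes that stayed under the limit throughout a line gave the spread of background signal. The SD of their log2 ratios ranged from 0.070 to 0.074 (HCT116) and from 0.062 to 0.072 (PANC1). It does not measure the spread between replicate cultures or that of genes above the limit. Background was left in the signal, so ratios of dim genes are understated. All 5 epithelial markers looked up (EPCAM, CDH1, KRT8, KRT18 and KRT19) were above the limit in all 6 columns of both lines. Of 6 intestinal markers, CDX2 was above it in all 6 columns of HCT116 and also of PANC1, KRT20 was above it in 1 HCT116 column, and CDX1, VIL1, LGR5 and CEACAM5 were above it in none. PDX1, a pancreatic transcription factor, was above the limit in all 6 PANC1 columns but in all 6 HCT116 columns as well, while PTF1A, PRSS1 and INS were above it in no PANC1 column. Of 4 markers of a mesenchymal state, VIM was above it in all 12 columns, CDH2 in all 6 and ZEB1 in 5 of the PANC1 columns, and FN1 in none of the 12. PTPRC, CD3E and PECAM1, markers of blood and endothelial cells, were above it in none of the 12 columns. Of the collagen genes, COL1A1 was above it in all 12, and COL3A1 in 5 of the PANC1 columns and in none of HCT116.

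EGF receptors are tyrosine kinases of the cell surface that pair with each other when a ligand binds. EGFR binds all 5 of these ligands, ERBB2 has no known ligand of its own and serves as a partner, and ERBB3 binds neuregulins and has little kinase activity. The ligands are made as membrane proteins and are cut free by ADAM proteases, and the receptors then signal through the RAS, RAF and ERK cascade and through PI3 kinase. In intestinal epithelium and in pancreatic duct cells these ligands drive growth and repair, often by acting on the cell that made them.

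Promoters are shown for the 3 ligands whose signal changed 1.5-fold, so that their sequence can be set beside their levels. RefSeq promoter windows (assembly GRCh38.p14) were found for 7 of the 8 genes. ERBB3 had no entry. Printed are the 250 bases before the transcription start, 5′ to 3′ on the gene's strand, with motif matches in capitals.
HBEGF, chr5:140346604-140346853, minus strand: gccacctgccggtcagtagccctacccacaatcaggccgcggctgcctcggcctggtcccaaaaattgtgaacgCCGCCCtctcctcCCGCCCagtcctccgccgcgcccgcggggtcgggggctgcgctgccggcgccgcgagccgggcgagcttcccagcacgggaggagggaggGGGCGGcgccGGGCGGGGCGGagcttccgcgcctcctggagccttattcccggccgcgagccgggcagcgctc
TGFA, chr2:70553827-70554076, minus strand: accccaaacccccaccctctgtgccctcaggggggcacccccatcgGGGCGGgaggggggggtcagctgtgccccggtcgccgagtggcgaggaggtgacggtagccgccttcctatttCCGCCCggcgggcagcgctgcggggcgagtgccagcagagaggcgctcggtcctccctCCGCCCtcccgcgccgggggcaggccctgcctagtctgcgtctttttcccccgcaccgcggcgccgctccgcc
EREG, chr4:74364895-74365144, plus strand: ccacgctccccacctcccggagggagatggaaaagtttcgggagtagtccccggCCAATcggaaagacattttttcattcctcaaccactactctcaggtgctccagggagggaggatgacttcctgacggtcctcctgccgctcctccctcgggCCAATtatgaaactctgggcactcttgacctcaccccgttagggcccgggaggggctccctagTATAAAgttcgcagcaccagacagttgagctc
The capitals mark GC boxes (GGGCGG or its reverse complement) in HBEGF and TGFA, and CCAAT boxes and a TATA box (TATAAA) in EREG, all searched on both strands. The HBEGF window held 5 GC boxes, of which the pair nearest the start shared 1 base, and the TGFA window held 3. A second TGFA window, chr2:70553447-70553696, held no match to any motif searched. In EREG the TATA box lay at -32 to -27 from the start and the CCAAT boxes at -196 to -192 and -95 to -91. Among 35116 windows of this length, 42.6% held a GC box, 32.0% a CCAAT box and 10.7% a TATA box. None of the windows printed held the AP-1 motif TGANTCA, the TCF/LEF motif CTTTGAT, the cyclic AMP response element TGACGTCA or the ATF4 motif TGATGCAA. These motifs were found in 6.57%, 2.26%, 1.65% and 0.772% of all windows. A match is a description of the letters and not evidence of a bound factor.

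To determine which ligands and receptors were read at all, each signal was set against the detection limit of its column. In HCT116, 7 of the 8 genes were above the limit in all 6 columns, and AREG was above it in none. In PANC1, EGFR, ERBB2 and HBEGF were above it in all 6 columns and TGFA and EREG in 5, while ERBB3, AREG and BTC were above it in none. ERBB3 and BTC were thus read in the colon line only. No signal was set against that of another gene or of the other line, because probes differ in brightness and column medians lay at 139.05 or higher in HCT116 but at 133.5 or lower in PANC1.

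**Figure D1:**
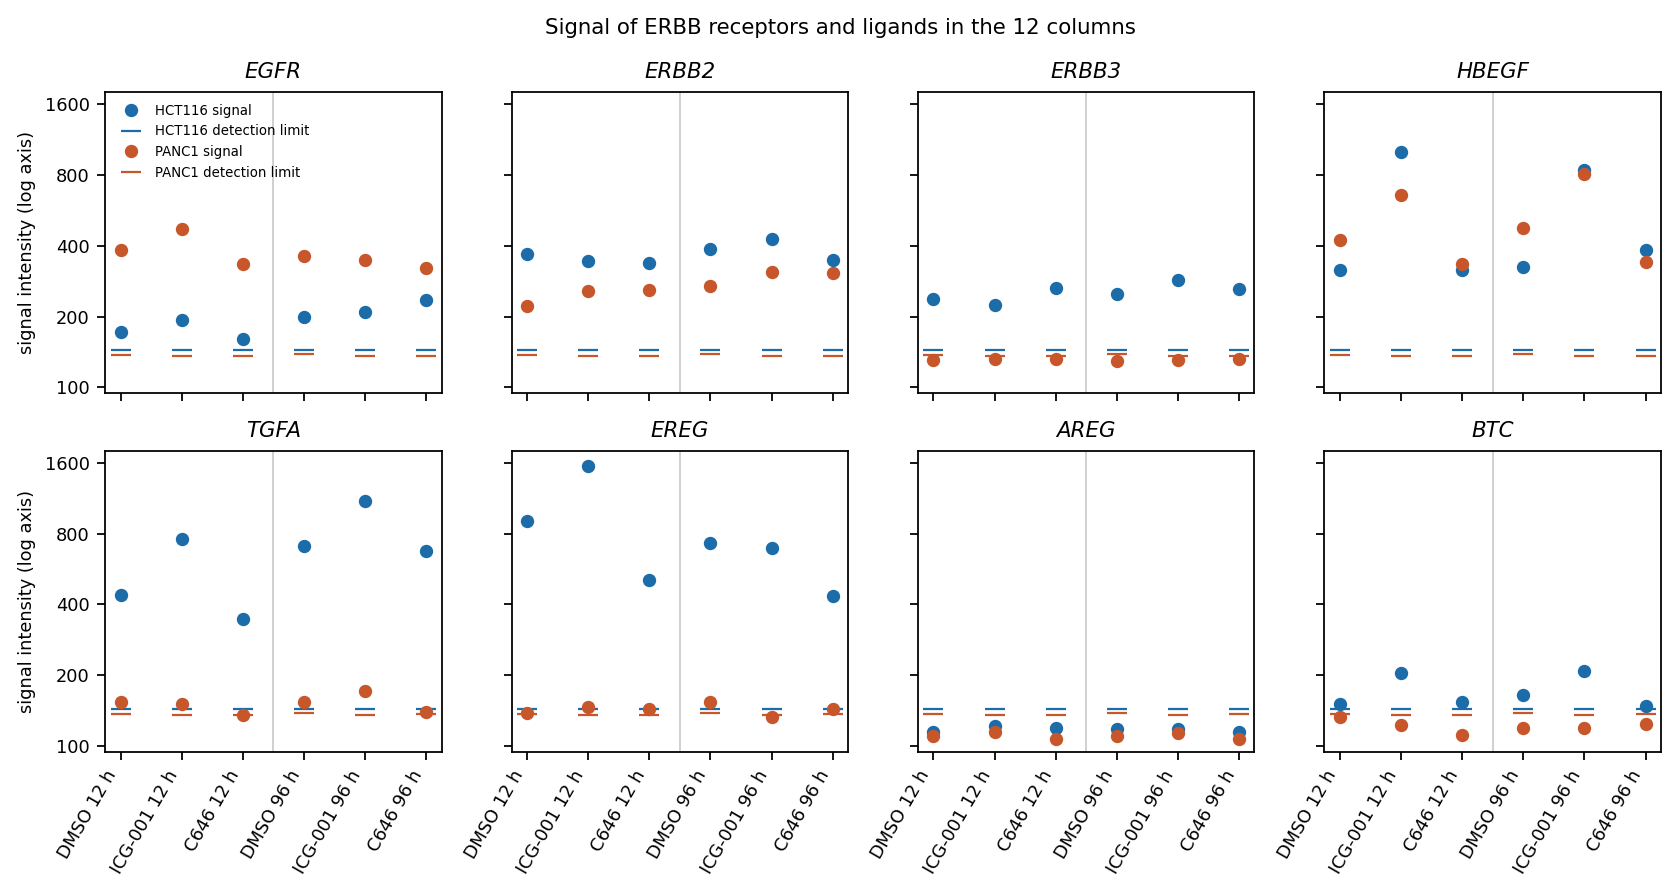
Signal intensity (log axis) of the 8 genes in the 12 columns, with 1 point per column and dashes at the detection limit of the column; HCT116 is blue and PANC1 is orange. The HBEGF points of ICG-001, 994.9 and 839.5 in HCT116 and 654.6 and 803.1 in PANC1, lie above all other HBEGF points of their line, and AREG lies under the limit throughout.

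The ligands were set against DMSO of the same line and time point to ask which of them each drug altered. Over the 8 comparisons with DMSO, 48 ratios of the 8 genes, receptors included, could be computed, and 9 passed 1.5-fold. In these comparisons 2.55% to 10.4% of all genes changed. All 7 higher values were with ICG-001, in HBEGF, TGFA and EREG, and both lower values were with C646, in EREG. Comparisons of both drugs at a time point use the same DMSO column and are therefore not independent of each other. In bulk RNA, a change in the RNA per cell and a change in the makeup of the culture cannot be told apart.

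HBEGF, heparin-binding EGF-like growth factor, was higher with ICG-001 in both lines at both time points. In HCT116 its signal was 315.9 in DMSO 12 h, 326.1 in DMSO 96 h, 994.9 in ICG-001 12 h, 839.5 in ICG-001 96 h, 315.2 in C646 12 h and 383.8 in C646 96 h. The ICG-001 columns stood apart from the other 4, which spanned 315.2 to 383.8. Over DMSO, HBEGF was 3.15-fold higher at 12 h and 2.57-fold higher at 96 h, log2 ratios of 1.65 and 1.36. Of all genes compared, 0.219% and 0.510% were at least as far above DMSO at these time points.

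In PANC1 the HBEGF signal was 424.2 in DMSO 12 h, 473.7 in DMSO 96 h, 654.6 in ICG-001 12 h, 803.1 in ICG-001 96 h, 335.8 in C646 12 h and 342.3 in C646 96 h. The order of the treatments was ICG-001, DMSO and C646 at both time points. With ICG-001 HBEGF was 1.54-fold higher at 12 h and 1.70-fold higher at 96 h, log2 ratios of 0.63 and 0.76. In these comparisons 1.87% and 1.85% of all genes compared were at least as far above DMSO. The 12 h value lay close to the threshold, and against the DMSO 96 h column it was 0.47, under 1.5-fold. With C646 the log2 ratio of HBEGF in PANC1 was -0.34 at 12 h and -0.47 at 96 h, short of 1.5-fold, and in HCT116 it was 0.00 and 0.24. After normexp, which removes background from the signal, the 96 h value in PANC1 was -0.60, past 1.5-fold.

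ICG-001 was also set directly against C646, which uses no DMSO column but the same ICG-001 columns. HBEGF was higher with ICG-001 in each of the 4 pairs. In HCT116 the log2 ratios were 1.66 (12 h) and 1.13 (96 h). In PANC1 they were 0.96 and 1.23. HBEGF was the only gene of the set that passed 1.5-fold between the drugs in PANC1.

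TGFA, transforming growth factor alpha, was higher with ICG-001 in HCT116 and was also higher at the later time point. Its HCT116 signal was 440.3 in DMSO 12 h, 705.4 in DMSO 96 h, 755.0 in ICG-001 12 h, 1095.8 in ICG-001 96 h, 347.9 in C646 12 h and 676.1 in C646 96 h. The ICG-001 columns were the brightest, but DMSO 96 h came close to ICG-001 12 h. Over DMSO of the same time point TGFA was 1.71-fold higher with ICG-001 at 12 h and 1.55-fold higher at 96 h. In these comparisons 2.39% and 4.24% of all genes compared were at least as far above DMSO. Between time points it was 1.60-fold higher at 96 h in DMSO, 1.45-fold higher in ICG-001 and 1.94-fold higher in C646. ICG-001 12 h set against DMSO 96 h gave a log2 ratio of 0.10, so the change at 12 h was about the size of that between the DMSO columns. Against C646, TGFA was higher with ICG-001 by 1.12 at 12 h and 0.70 at 96 h on the log2 scale. In PANC1 TGFA lay near the limit, between 135.5 and 172.4, with C646 12 h under it, and no ratio passed 1.5-fold.

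EREG, epiregulin, differed between the drugs in HCT116. Its signal was 905.6 in DMSO 12 h, 727.1 in DMSO 96 h, 1554.9 in ICG-001 12 h, 692.8 in ICG-001 96 h, 507.4 in C646 12 h and 435.5 in C646 96 h. The C646 columns were the dimmest at each time point, and ICG-001 was bright at 12 h only. With ICG-001 EREG was 1.72-fold higher than DMSO at 12 h, where 2.37% of all genes compared were at least as far above DMSO. At 96 h its log2 ratio was -0.07. With C646 it was 1.78-fold lower at 12 h and 1.67-fold lower at 96 h, and 0.382% and 0.486% of all genes compared were at least as far below DMSO. Against the DMSO column of the other time point, the C646 log2 ratios were -0.52 at 12 h, short of 1.5-fold, and -1.06 at 96 h. ICG-001 over C646 was 3.06-fold at 12 h and 1.59-fold at 96 h. From 12 h to 96 h in ICG-001 the log2 difference of EREG was -1.17, and between the DMSO columns it was -0.32. In PANC1 EREG was between 132.8 and 154.0, with ICG-001 96 h under the limit, and no ratio passed 1.5-fold.

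BTC, betacellulin, was dim in HCT116 and higher with ICG-001 by less than the threshold. Its signal was 151.0 in DMSO 12 h, 164.7 in DMSO 96 h, 205.0 in ICG-001 12 h, 207.9 in ICG-001 96 h, 154.4 in C646 12 h and 148.9 in C646 96 h. The ICG-001 columns were the brightest and the other 4 lay just above the limit. The log2 ratio of ICG-001 over DMSO was 0.44 at 12 h and 0.34 at 96 h as deposited. After normexp the same ratios were 0.99 and 0.70, past 1.5-fold. In PANC1 BTC was under the limit in all columns.

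AREG, amphiregulin, had signals between 114.8 and 122.5 in HCT116 and between 107.7 and 114.6 in PANC1, under the limit in all 12 columns. Only 0.626% to 9.38% of rows were dimmer than AREG in HCT116 columns and 0.199% to 3.93% in PANC1 columns. The row AREGB, at 118.7 to 124.5 and 113.5 to 120.0, was under the limit as well. No change in AREG could be read from these probes, and whether they can read AREG RNA was not tested.

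**Figure D2:**
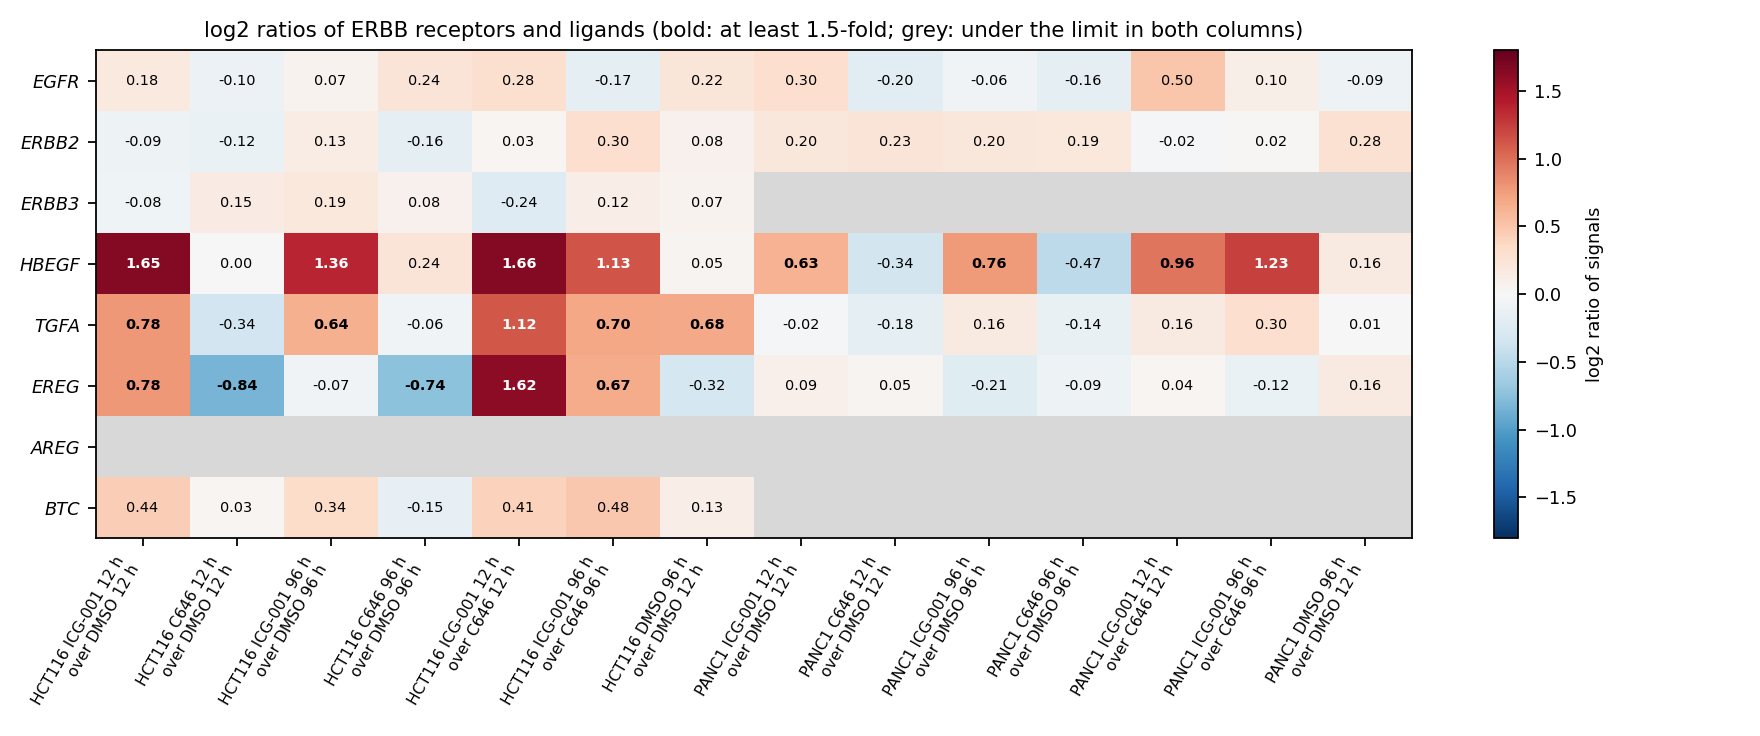
Log2 ratios of the 8 genes (rows) in the 14 comparisons (columns), with red for higher and blue for lower in the first column named, bold for at least 1.5-fold and grey where both signals were under the limit. Bold cells lie only in the rows of HBEGF, TGFA and EREG, and HBEGF is bold in all 8 comparisons that start with ICG-001.

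None of the receptors reached 1.5-fold in any of the 14 comparisons as deposited. EGFR in HCT116 had signals of 171.5 in DMSO 12 h, 199.9 in DMSO 96 h, 194.3 in ICG-001 12 h, 209.8 in ICG-001 96 h, 159.8 in C646 12 h and 235.6 in C646 96 h. The dimmest and the brightest of these columns were both C646. They lay at 1.11 and 1.64 times the limit, so EGFR ratios in HCT116 are understated. In PANC1 EGFR was 382.4 in DMSO 12 h, 360.1 in DMSO 96 h, 472.0 in ICG-001 12 h, 346.3 in ICG-001 96 h, 332.7 in C646 12 h and 322.7 in C646 96 h. The brightest column was ICG-001 12 h, and the other 5 spanned 322.7 to 382.4. Between time points, EGFR in C646 in HCT116 was 0.56 higher on the log2 scale at 96 h. Within the 14 comparisons its largest log2 ratio, 0.50, was that of ICG-001 over C646 at 12 h in PANC1, and after normexp it was 0.63, past 1.5-fold. The same comparison in HCT116 was 0.28 as deposited and also 0.63 after normexp.

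ERBB2, the partner receptor, was between 338.2 and 426.6 in HCT116 and between 222.3 and 310.4 in PANC1, a range of 1.26-fold and 1.40-fold. Its log2 ratios to DMSO in PANC1 at 12 h and 96 h were 0.20 and 0.20 for ICG-001, and for C646 they were 0.23 and 0.19. These 4 small ratios were above 0, and DMSO 96 h over DMSO 12 h was 0.28. ERBB3, the neuregulin receptor, was between 224.6 and 284.8 in HCT116, and its largest log2 ratio to DMSO there was 0.19, with ICG-001 at 96 h. In PANC1 it was between 129.8 and 132.5, under the limit.

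Counts over the set were read against the share of all genes that changed in either direction. In HCT116, 3 of 7 genes above the limit changed with ICG-001 at 12 h, where 9.07% of all genes did, and 2 of 7 at 96 h, where 10.4% did. With C646 in HCT116, 1 of 7 changed at 12 h (4.18% of all genes) and 1 at 96 h (3.15%). In PANC1, 1 of 5 changed with ICG-001 at 12 h (2.55% of all genes) and 1 at 96 h (7.51%). None of the 5 changed with C646 in PANC1 at 12 h (6.76%) or 96 h (4.05%). ICG-001 over C646 gave 3 of 7 in HCT116 at both 12 h (6.33%) and 96 h (6.57%), and 1 of 5 in PANC1 at both 12 h (2.52%) and 96 h (6.89%). Between the DMSO columns, 96 h over 12 h, 1 of 7 changed in HCT116 (3.15%) and 0 of 5 in PANC1 (1.32%). The median log2 ratio of the 7 genes with ICG-001 in HCT116 was 0.44 at 12 h and 0.19 at 96 h, while the median of all genes compared lay between -0.014 and 0.0092 in all 14 comparisons. With sets of 7 and 5 genes, 1 gene moves such a share widely.

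**Figure D3:**
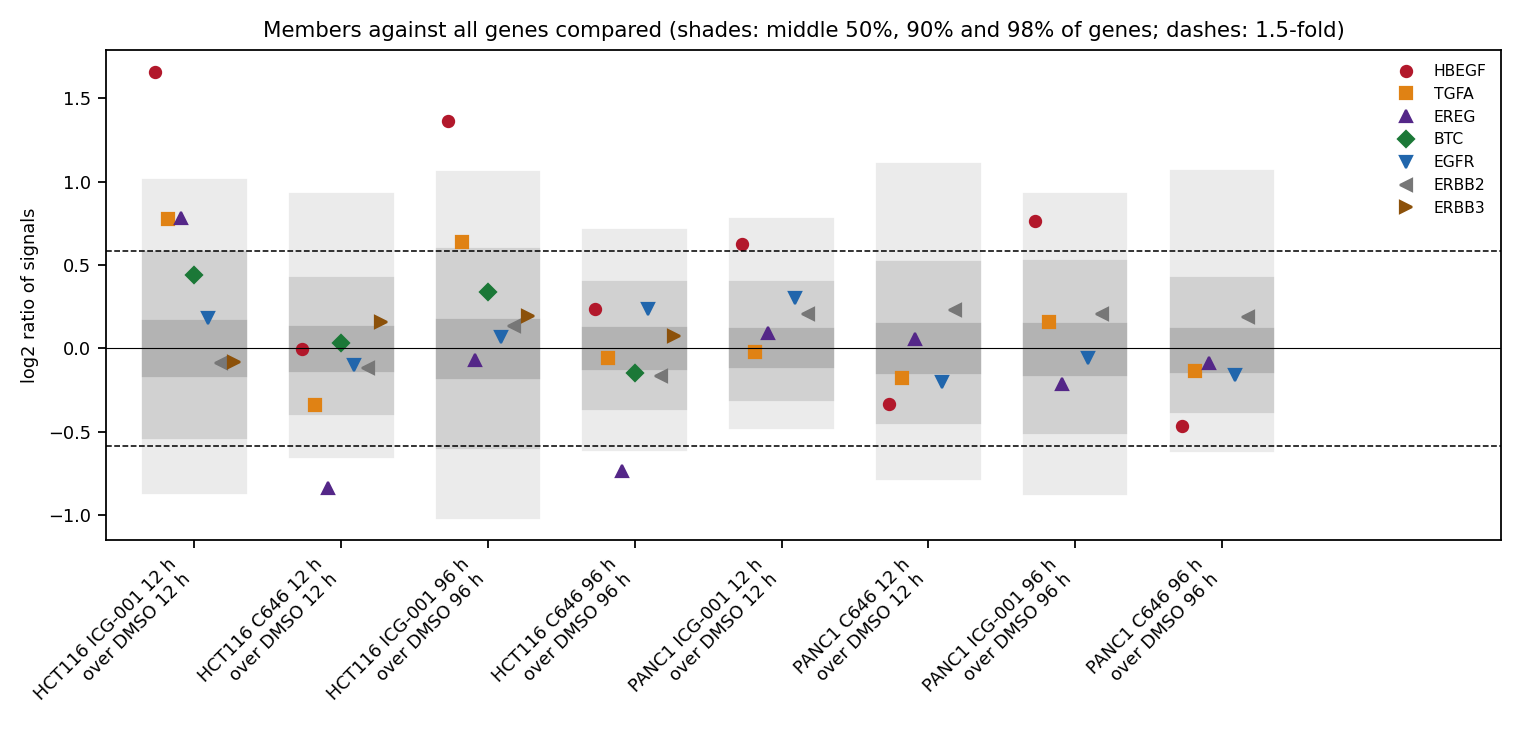
Log2 ratios of the genes above the limit to DMSO in 8 comparisons, drawn over bands that hold the middle 50%, 90% and 98% of all genes compared, with dashed lines at 1.5-fold. HBEGF (1.65 and 1.36) lies above the widest band with ICG-001 in HCT116, EREG (-0.84 and -0.74) lies below it with C646 in HCT116, and the receptors stay between the dashed lines.

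The rest of the family was examined next. Of 7 other receptor and ligand genes, ERBB4, EGF, EPGN, NRG1, NRG2, NRG3 and NRG4, few could be read. At most 1 was above the limit in an HCT116 comparison with DMSO and 2 or 3 in a PANC1 comparison, and none of those changed. NRG1, a ligand of ERBB3 and ERBB4, was the only one that all 6 columns of either line read above the limit, in PANC1, and was under it throughout HCT116. Its PANC1 signal was 165.0 in DMSO 12 h, 149.9 in DMSO 96 h, 230.5 in ICG-001 12 h, 149.1 in ICG-001 96 h, 150.0 in C646 12 h and 137.2 in C646 96 h, with ICG-001 12 h alone well above the others. NRG1 passed 1.5-fold in ICG-001 over C646 at 12 h there. EREG, AREG and BTC lie on chromosome 4 in the RefSeq order CXCL2, MTHFD2L, EPGN, EREG, AREG and BTC, with long non-coding RNA genes between some of them. CXCL2, MTHFD2L and EPGN were the neighbours with rows. EPGN was above the limit in none of the 12 columns and CXCL2 in 1, and MTHFD2L, above it in all 12, did not reach 1.5-fold with a drug.

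Proteases and rhomboid proteins govern the release of these ligands. Of 11 shedding genes, 8 were above the limit in each comparison with DMSO, and between 1 and 3 of them changed, where 2.55% to 10.4% of all genes did. RHBDF1, which encodes iRhom1, a protein that carries ADAM17 to the cell surface, was at 342.9 in DMSO 12 h, 512.0 in ICG-001 12 h and 521.9 in C646 12 h in HCT116, and at 477.4, 618.6 and 774.5 in the same treatments at 96 h. It was highest with C646 at both time points, but at 12 h ICG-001 came close to C646 and fell just short of 1.5-fold over DMSO. RHBDF1 passed 1.5-fold with C646 in both lines and both time points, with log2 ratios of 0.61 and 0.70 in HCT116 and of 1.27 and 0.83 in PANC1, and with ICG-001 only in PANC1 at 12 h (0.79). In PANC1 the log2 ratio of DMSO 96 h over DMSO 12 h was 0.64 as well.

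RHBDL2, a rhomboid protease, was higher with C646 in PANC1 by 1.06 at both time points. In HCT116 its log2 ratios at 12 h were 0.61 with ICG-001 and 0.63 with C646. RHBDF2, which encodes iRhom2, passed the threshold in PANC1 with ICG-001 at both time points (0.62 and 0.79) and with C646 at 96 h (0.59). ADAM17, the main sheddase of HBEGF and TGFA, changed in none of the comparisons, ADAM10 was lower with C646 at 12 h in HCT116 (-0.61), and ADAM19 was higher with ICG-001 at 96 h in HCT116 (0.71). The median log2 ratio of the shedding list lay between -0.05 and 0.27 in the 8 comparisons with DMSO.

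Adaptors and transducers were 24 genes from GRB2 and SHC1 to AKT2. Of 22 or 23 above the limit, at most 2 changed in a comparison with DMSO. With ICG-001 at 12 h in HCT116, PLCG1 and MAPK3 were the 2 of 22, and 9.07% of all genes changed there. At 96 h it was MAPK3 alone of 23 (10.4%). With C646 at 12 h in PANC1, ARAF was higher and MAP2K2 lower, 2 of 23 (6.76%). None changed with C646 in HCT116 (4.18% and 3.15%), with ICG-001 in PANC1 (2.55% and 7.51%) or with C646 at 96 h in PANC1 (4.05%). MAPK3, which encodes ERK1, was at 842.3 in DMSO 12 h, 1141.5 in DMSO 96 h, 508.2 in ICG-001 12 h and 616.2 in ICG-001 96 h in HCT116. It was lower with ICG-001 there at both time points, by log2 ratios of -0.73 and -0.89, and with C646 its ratios were -0.45 and -0.24. MAPK3 passed 1.5-fold in none of the 4 PANC1 comparisons with DMSO. The list's median lay between -0.08 and -0.02 in the 8 comparisons.

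Among 13 genes that restrain or sort the receptors, 12 or 13 were above the limit in a comparison with DMSO. With ICG-001 in HCT116, 3 changed at 12 h (9.07% of all genes) and 1 at 96 h (10.4%). In PANC1 at 12 h, 2 changed with ICG-001 (2.55%) and 1 with C646 (6.76%). None changed with C646 in HCT116 (4.18% and 3.15%) or at 96 h in PANC1 (7.51% and 4.05%). The list's median lay between -0.13 and 0.13. SH3KBP1 and HGS passed the threshold in at least 2 comparisons of a line. SH3KBP1, an adaptor of the ubiquitin ligase CBL, was at 1145.5 in DMSO 12 h, 1259.4 in DMSO 96 h, 2005.4 in ICG-001 12 h and 3015.3 in ICG-001 96 h in HCT116. These are log2 ratios of 0.81 and 1.26 to DMSO, while with C646 they were -0.50 and -0.07. In PANC1 its 4 ratios lay between -0.27 and -0.08. HGS, an endosomal sorting protein, was higher in PANC1 at 12 h, with log2 ratios of 0.72 for ICG-001 and 0.70 for C646, and also in HCT116 with ICG-001 at 12 h (0.63). ERRFI1, a direct inhibitor of EGFR, was higher with ICG-001 at 12 h in both lines, by 0.86 in HCT116 and 0.65 in PANC1. DMSO 96 h over DMSO 12 h was 0.64 in HCT116. In PANC1 it stood at 5379 in DMSO 12 h, 7294 in DMSO 96 h and 8426 in ICG-001 12 h. At 96 h ICG-001 and DMSO were at 12618 and 12331 in HCT116 and at 8326 and 7294 in PANC1. ERRFI1 was named after its values were seen.

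Genes that ERK signaling induces, or that feed back on it, were read as the output end of the pathway. Of 16 such genes in HCT116, 4 were higher with ICG-001 at 12 h (DUSP5, FOSL1, IER3 and CCND1) and none lower, a median log2 ratio of 0.35, where 9.07% of all genes changed. At 96 h of ICG-001, FOSL1, IER3 and CCND1 were higher and SPRY1 and EGR1 lower, a median of 0.07, where 10.4% of all genes changed. With C646 in HCT116, none was higher, and 3 were lower at 12 h (DUSP6, EGR1 and EPHA2) and 1 at 96 h (EPHA2), with medians of -0.24 and -0.21, where 4.18% and 3.15% of all genes changed. Thus the signs of the medians differed between the drugs in this line. Between its DMSO columns 3 of the 16 were higher at 96 h (DUSP5, SPRY1 and EGR1), a median of 0.27, where 3.15% of all genes changed.

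In PANC1, 15 of these genes were above the limit. With ICG-001, DUSP5 and IER3 were higher at 12 h, and at 96 h ETV5 was higher while SPRY1, EGR1, FOSL1, IER3 and EPHA2 were lower, with medians of 0.15 and -0.20, where 2.55% and 7.51% of all genes changed. With C646, 2 were lower at 12 h and 4 at 96 h and none was higher, with medians of -0.21 and -0.45, where 6.76% and 4.05% of all genes changed. FOSL1, an AP-1 subunit, had opposite signs in the lines with ICG-001 at 96 h, at 647.4 against 361.4 in DMSO in HCT116 and at 854.8 against 1527.5 in PANC1. EPHA2, a receptor tyrosine kinase, was at 1338.4 in DMSO 96 h, 722.6 in ICG-001 96 h and 687.2 in C646 96 h in PANC1. EGR1, an immediate early transcription factor, was at 2553.8 in DMSO 96 h and 801.8 in ICG-001 96 h in HCT116. DMSO 12 h stood at 1361.0 there, so EGR1 also differed between the DMSO columns. IER3 in PANC1 was at 2099.1 in DMSO 12 h, 3285.6 in DMSO 96 h, 3420.4 in ICG-001 12 h and 2031.1 in ICG-001 96 h. It thus passed 1.5-fold between the DMSO columns as well, where 1.32% of all genes changed.

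**Figure D4:**
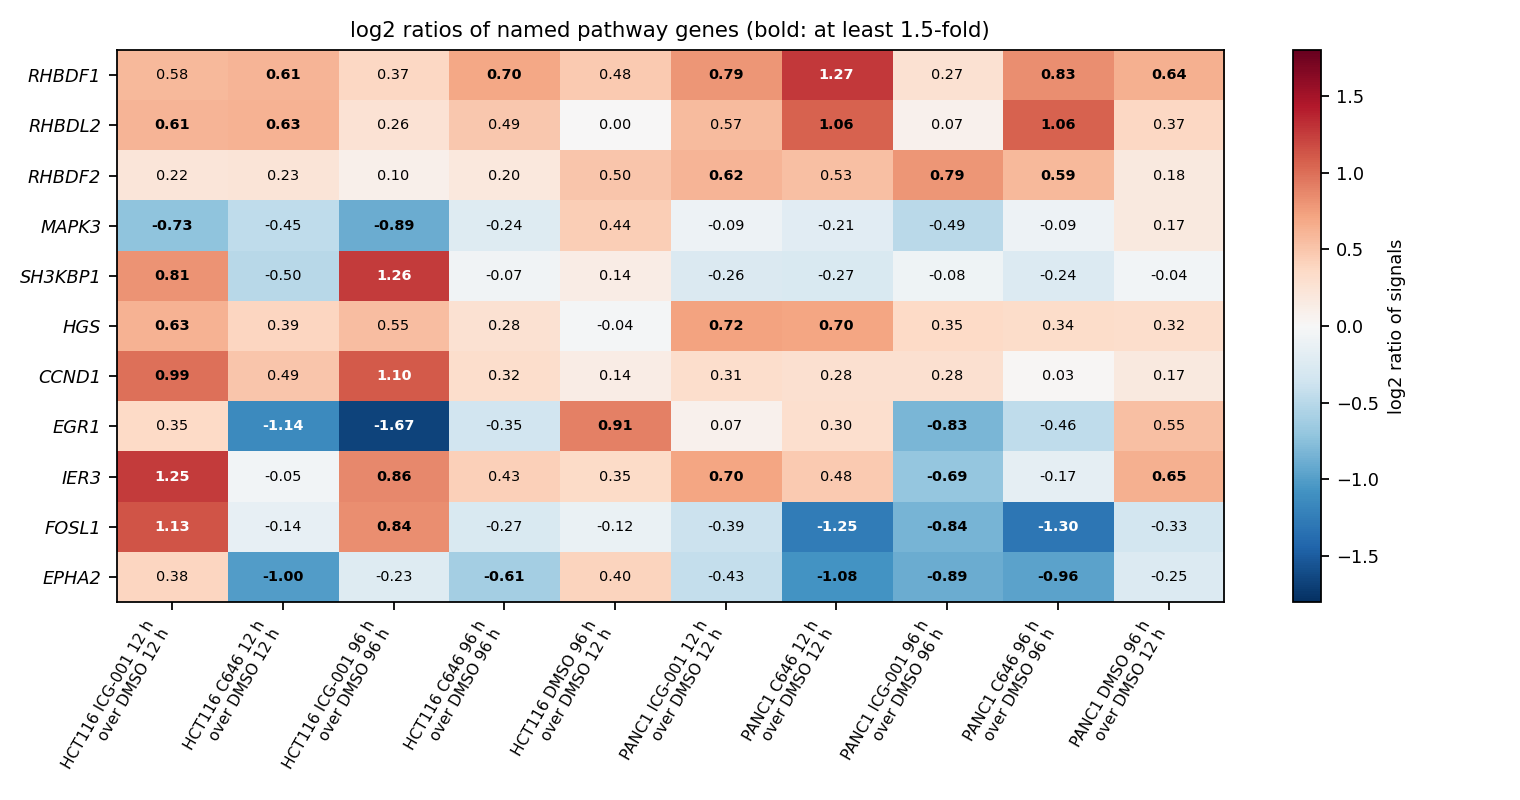
Log2 ratios of the pathway genes named by the rule (rows) to DMSO, and of DMSO 96 h to DMSO 12 h, in both lines (columns), with red for higher, blue for lower and bold for at least 1.5-fold. RHBDF1 is higher throughout, FOSL1 is red with ICG-001 in HCT116 (1.13 and 0.84) and blue in PANC1 in all 4 comparisons with DMSO, and SH3KBP1 is red only with ICG-001 in HCT116 and with time in DMSO (0.14).

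HBEGF, TGFA, EREG and EGFR had the widest ranges of log2 signal within a line. The genes whose pattern came nearest to theirs were found by Pearson's r of log2 signal, centred within each line, over the 12 columns. This search was not run for the other genes of the set. The 12 points share columns with all other genes and rest on 1 measurement each, so r is a description. The search covered 6321 genes for the ligands and 6322 for EGFR. Nearest to HBEGF were CCDC90B (r = 0.977), ARHGEF2 (0.977), an exchange factor for RhoA, and EIF1 (0.973), a translation initiation factor. ARHGEF2 had log2 ratios of ICG-001 over DMSO of 1.72 (12 h) and 1.52 (96 h) in HCT116, and 1.01 and 0.85 in PANC1, where HBEGF had 0.63 and 0.76. Those of EIF1 were 0.67 and 0.79 in HCT116. In PANC1 they were 0.38 and 0.48.

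**Figure D5:**
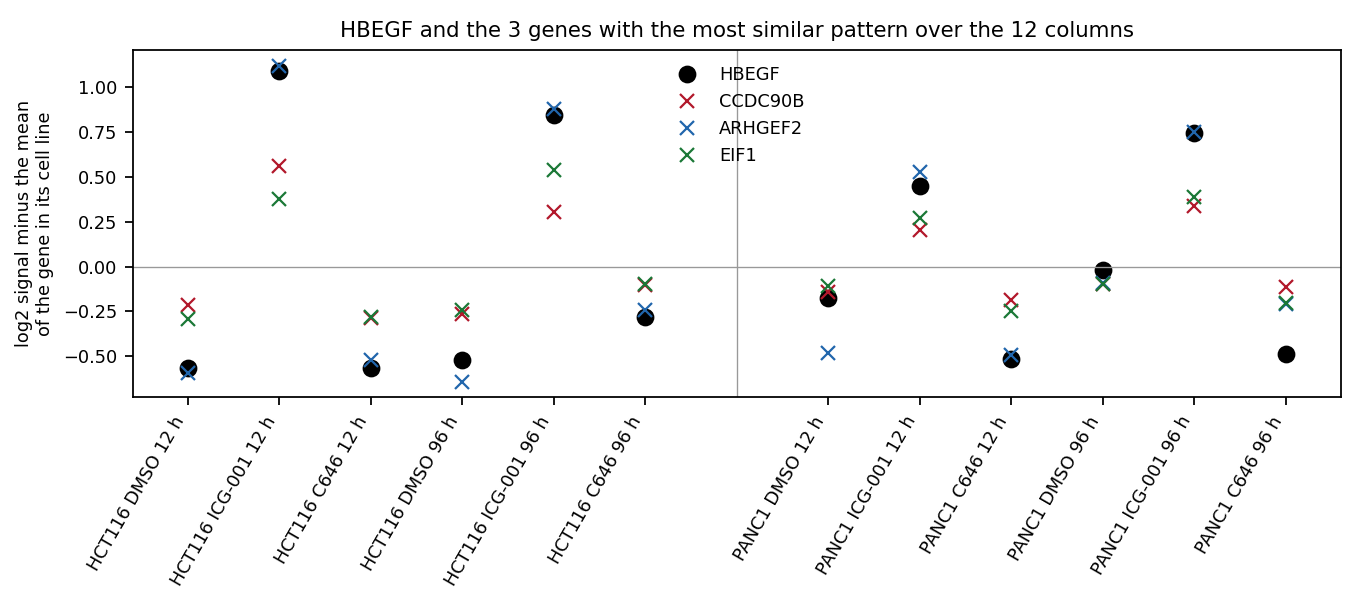
Log2 signal minus the mean of the gene in its line, for HBEGF (black) and the 3 genes nearest to it (crosses) in the 12 columns, HCT116 on the left and PANC1 on the right. All 4 genes are above 0 in the 4 ICG-001 columns and below 0 in the DMSO and C646 columns.

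Nearest to TGFA were GPR108 (r = 0.967), ITGA3 (0.964), an integrin subunit, and BTG1 (0.951), an antiproliferative gene. ITGA3 in HCT116 went from 968.6 in DMSO 12 h to 1628.6 in DMSO 96 h and from 1916.4 in ICG-001 12 h to 2930.8 in ICG-001 96 h, higher with both time and ICG-001 as TGFA was. Likeness was lower for EREG and EGFR. EREG was nearest to LOC644684 (0.876), G6PC3 (0.876), a glucose-6-phosphatase, and LOC652175 (0.867). EGFR was nearest to ITGA2 (0.891), an integrin subunit, PIM1 (0.874), a kinase, and C16orf52 (0.857). Among the genes of the set above the limit in both lines, HBEGF and TGFA had the highest r with each other, 0.69, and EGFR and ERBB2 the lowest, -0.16.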

How the data were processed

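Per the labels and the study's methods, RNA was amplified and labelled, hybridized to Illumina HumanHT-12 v4 arrays, and exported from GenomeStudio with quantile normalization and no background subtraction. The deposited table holds linear signal intensity in which the authors averaged replicate arrays, 1 column for each of 12 groups. Groups were taken from the labels. The array annotation build is not given in the sources used here.

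Ratios were differences of log2 signal in 14 comparisons. The detection limit was the peak of the log2 distribution plus 2.33 SD, the SD being taken from values below the peak, and a gene entered a comparison when above it in at least 1 column. Changed means at least 1.5-fold. Each group had 1 column, so no comparison has a replicate check. A fit that takes lines and time points as replicates of a treatment was not run. The number of arrays limits precision. Named pathway genes passed 1.5-fold in the same direction in at least 2 of the 4 comparisons of a line with DMSO, up to 4 per list, and genes outside this rule were named after their values were seen. The genes and lists were chosen with earlier results of these data known. The procedure was run on simulated data that held 2-fold changes in genes well above the limit. The simulated noise came from the background peak and not from replicate arrays, so calls near 1.5-fold were not tested. The alternatives tried were 1.2-fold and 2-fold thresholds, no filter, a limit at 5 SD, normexp (offset 16) then quantile normalization within a line, quantile normalization over 12 columns, median centring, and the other DMSO column as control. Python 3.11.15, numpy 2.4.6, pandas 2.3.3, matplotlib 3.10.9, R 4.3.3 and limma 3.58.1 were used.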

Additional observations from a re-analysis of the deposited data

How the results depend on the processing

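No paired analysis was possible because the replicate numbers in the labels are averaged within each column. A fit over the 4 pairs of line and time point was not run. Of the 18 ratios that passed 1.5-fold, none changed sign in 99 recomputed values. The filter settings leave a ratio as it is and median centring hardly shifts it, so these could not turn a sign. In size, 24 of the 99 moved by at least the SD of genes under the limit. TGFA with ICG-001 at 12 h in HCT116 fell from 0.78 to 0.098 with the other DMSO column. Counts of changed genes kept within 1.5 times the reported ones in all 14 comparisons with no filter, a limit at 5 SD, median centring or quantile normalization over 12 columns. The fold threshold moved most counts, and 7 ratios passed 2-fold. The share of all genes changed is given at 1.5-fold as deposited only. Counts under other settings therefore cannot be read against such a share. At 2-fold the count was 1 for ICG-001 over DMSO in HCT116 at 12 h and 96 h and for ICG-001 over C646 in HCT116 at 96 h. It was 0 for C646 over DMSO at both times and DMSO 96 h over 12 h in HCT116, and for ICG-001 over DMSO at both times and over C646 at 12 h in PANC1. At 1.2-fold it was 5 for ICG-001 over C646 in HCT116 at both times, and 2 for C646 12 h over DMSO and DMSO 96 h over 12 h in HCT116. In PANC1 it was 2 for ICG-001 12 h over DMSO and for ICG-001 over C646 at both times, and 1 for C646 over DMSO at both times and for DMSO 96 h over 12 h. After normexp it was 5 for ICG-001 over C646 at 12 h in HCT116, and in PANC1 2 for ICG-001 96 h over DMSO and for ICG-001 over C646 at both times, and 1 for C646 96 h over DMSO. The ratios that normexp added past 1.5-fold were BTC with ICG-001 in HCT116 over DMSO and over C646 at both times, EGFR in ICG-001 over C646 at 12 h in both lines, and in PANC1 EREG lower with ICG-001 at 96 h, HBEGF lower with C646 at 96 h and TGFA in ICG-001 over C646 at 96 h. With the DMSO column of the other time point the count was 2 for C646 96 h in HCT116 (TGFA joined EREG) and 0 for ICG-001 12 h in PANC1. For ICG-001 12 h in HCT116 it was 2, as TGFA (0.098) dropped out. For C646 12 h in HCT116 it stayed 1, but with another gene. EREG (-0.52) dropped out and TGFA came in, at 347.9 against 705.4 in DMSO 96 h. The cause of these moves was not tested. Signal near background limits BTC and EGFR in HCT116 and TGFA and EREG in PANC1.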
